A study of Mus musculus with 112 samples.

Results

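When U1 and U2 small nuclear RNAs were blocked together in mouse embryonic stem cells (ESCs), long noncoding RNAs (lncRNAs) of the nucleoplasm moved in both directions. Of 1142 lncRNAs tested, 90 were higher and 78 lower than with a control oligonucleotide. The comparison takes 6 of the 112 samples of the series: 3 nucleoplasm libraries labelled U1+U2 AMO and 3 labelled control AMO. It was chosen by its label, and no measured value entered the choice. An AMO is an antisense morpholino oligonucleotide, which binds a small nuclear RNA and blocks its base pairing. All cells were 46C ESCs of strain 129/Ola, kept with serum and leukemia inhibitory factor. AMOs were brought in by nucleofection 2 h before harvest, at 50 µM for U1+U2 AMO and at 75 µM for the control AMO, which is scrambled. The U1 AMO and U2 AMO groups, used here for comparison, each had 3 nucleoplasm libraries at 75 µM and 2 h. The labels do not say whether 50 µM is the dose of each AMO or of both together, so whether the total was lower or higher than in the other groups is not known. The part of the dose cannot be told apart from that of the AMOs. Cells were separated into cytoplasm, nucleoplasm and chromatin, and lacZ and mCherry spike-in RNA was added to each whole fraction. Total RNA was depleted of ribosomal RNA before sequencing. Levels below are spike-in scaled FPKM (fragments per kilobase of transcript, scaled by library), given for each library or as mean ± SD of 3 libraries. Changes are differences of log2(FPKM + 0.2), and a lncRNA passed at an adjusted p under 0.05 in limma, a linear model fitted over all lncRNAs with Benjamini-Hochberg adjustment. A 2-fold change is 1 on this scale, and fold changes of low lncRNAs are understated by the added 0.2.

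U1 small nuclear RNA, as U1 snRNP, pairs with the 5′ splice site and also shields nascent transcripts from early cleavage and polyadenylation. U2 snRNP pairs with the branch point and makes the core of the active spliceosome. U1 snRNP is also known to hold many lncRNAs on chromatin. Nucleoplasm is the soluble part of the nucleus, where released transcripts are found before export or decay. Many small nucleolar RNAs (snoRNAs) and microRNAs are cut from introns of lncRNA host genes, so their hosts are of interest when splicing is blocked. The table lists lncRNAs and not the snRNAs, so the block of U1 and U2 RNA itself was not checked.

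The sequences that bear on the hosts below are the starts of 3 snoRNA hosts and the microRNAs of Dleu2, a host that fell. The first 50 bases from a RefSeq start on GRCm38 are shown as the start of each host RNA. Capitals mark GTAAGT, the intron side of the 5′ splice site consensus that pairs with U1. It was searched on the sense strand.
Snhg1: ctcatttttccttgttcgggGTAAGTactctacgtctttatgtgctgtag
Gas5: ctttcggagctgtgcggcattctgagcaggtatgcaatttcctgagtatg
Snhg12: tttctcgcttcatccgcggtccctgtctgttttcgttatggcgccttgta
The Snhg1 window is chr19:8723487-8723536, that of Gas5 chr1:161035166-161035215 and that of Snhg12 chr4:132308678-132308727, all on the plus strand. The Gas5 window starts at the last listed of its 2 RefSeq starts, and the window of the other start is not shown. The 6 letters stood in the Snhg1 window and in neither of the others, and 0.9% of 32851 windows of this kind hold them (1.39% on either strand). A match is a description of letters, not a used site. The 2 mature microRNAs of Dleu2 share their seed, bases 2 to 8, shown in capitals.
mmu-miR-15a-5p: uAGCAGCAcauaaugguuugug
mmu-miR-16-5p: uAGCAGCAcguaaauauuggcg
They lie at chr14:61632075-61632096 and chr14:61631936-61631957 on the minus strand, inside Dleu2. Mature microRNAs and the snoRNAs of these hosts were not measured, only the host RNA.

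The libraries were compared first. Summed FPKM ran from 7772.3 to 16712 over the U1+U2 AMO libraries and from 7131.3 to 17794 over the controls. The lncRNA with the highest value took 15% to 41.9% of the sum in U1+U2 AMO libraries, the highest share being in library 2, and 10.3% to 31.9% in controls. The library median was -0.63 ± 0.13 on the log2 scale with U1+U2 AMO and -0.59 ± 0.22 with control AMO (n = 3 each). The difference of -0.04 was within that spread, with an exact two-sided permutation p = 0.8, where 0.1 is the smallest p that 3 against 3 can give. In bulk RNA, fewer cells and less RNA per cell cannot be told apart. Of the ESC markers planned, Mir290a was not looked up. The other 9 were in the table, from Lncenc1 at 41.6 ± 8.1 FPKM down to Platr11 at 0.24 ± 0.22 in control nucleoplasm, with a lowest value of 0. Their summed level was 56.4 to 86.7 FPKM in controls and 45 to 53.4 with U1+U2 AMO. Of 10 listed lncRNAs of other lineages 5 were in the table, with sums of 4.72 to 9.4 and 3.48 to 4.91. The part of these sums in the results was not tested. Against the label, some nuclear RNAs were not highest in nuclear fractions on this scale: in control cells Malat1 was at 654 ± 198 FPKM in nucleoplasm, 831 ± 140 on chromatin and 1348 ± 137 in cytoplasm. Kcnq1ot1, bound to chromatin, had 0.633 ± 0.12 in nucleoplasm, 6.55 ± 0.69 on chromatin and 0.7 ± 0.1 in cytoplasm, and so stood at a like level in both soluble fractions.

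The 90 higher lncRNAs were 7.88% and the 78 lower ones 6.83% of those tested, 14.7% together. A further view counts lncRNAs whose 3 U1+U2 AMO libraries all lay above or all below the 3 controls: they were 34.1% of those tested, and 165 of the 168 that passed were among them. The change exceeded 2-fold for 80 of the higher and 52 of the lower lncRNAs, and the smallest change that passed was 0.74. Over all lncRNAs tested the median change was -0.13, with quartiles of -0.49 and 0.23. When replicate number was taken as a block, 103 were higher and 110 lower, and 165 of the 168 were among these. After each library was centred on its median, 114 were higher and 125 lower, with 166 of the 168 among them. With only the 2 groups fitted, 87 were higher and 61 lower, and 138 of the 168 were among these. The count of falls varied more than that of rises when 1 library was left out. Without control library 1 there were 77 higher and 28 lower, and without control library 3 there were 70 and 37. Without U1+U2 AMO library 1 there were 71 and 33, and without U1+U2 AMO library 2 there were 60 and 31. Without control library 2 the balance was the opposite, with 70 higher and 87 lower, and without U1+U2 AMO library 3 there were 78 and 45. In these 6 settings, in the order given, 102, 103, 98, 91, 138 and 119 of the calls were among the 168.

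**Figure D1:**
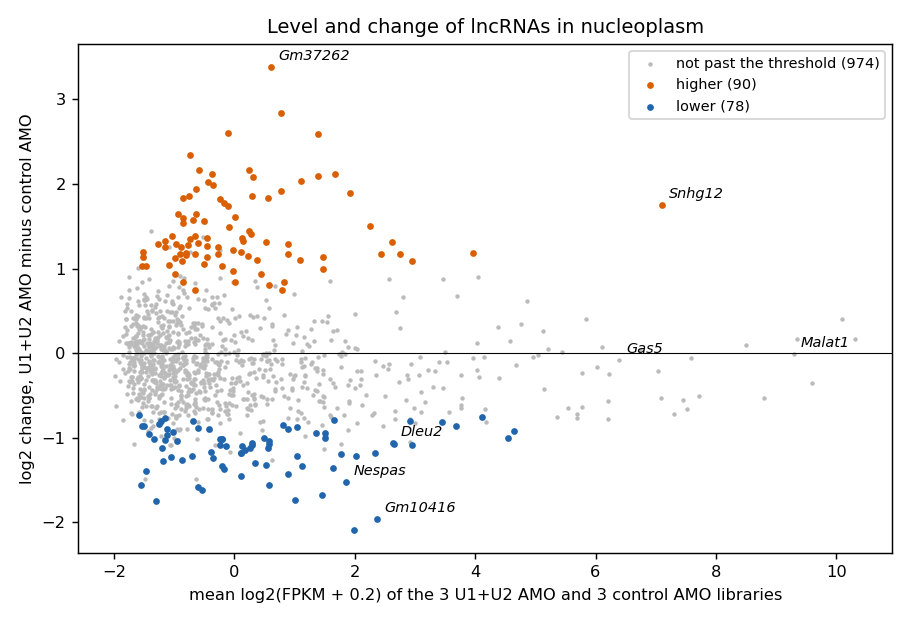
Each point is 1 of 1142 lncRNAs in nucleoplasm, with its mean log2(FPKM + 0.2) over 6 libraries on the x axis and its log2 change under U1+U2 AMO on the y axis. Of the 90 higher lncRNAs (orange) 20 are among the 381 with the highest control levels, Snhg12 at the far right, and of the 78 lower ones (blue) 54 are.

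Rises were largest among transcripts known only by Gm numbers, names given to gene models with no assigned function. Gm37262 (ENSMUSG00000103525.1) had 0.47, 0.18 and 0.21 FPKM in the 3 control libraries and 4.3, 4.93 and 4.92 in the 3 U1+U2 AMO libraries. Its change was 3.38 ± 0.31 (SE, adjusted p = 9.76e-06), and the means differed 16.5-fold. Gm37522 (ENSMUSG00000103783.1) had 0.32, 0.49 and 0.53 FPKM in controls and 4.11, 4.65 and 4.43 with U1+U2 AMO. This is a change of 2.84 ± 0.24 (SE, adjusted p = 5.74e-06). For both, the U1+U2 AMO libraries lay close together and far above the controls. Gm43178 went from 0.18 ± 0.053 to 2.1 ± 0.072 FPKM (2.61, adjusted p = 5.74e-06). Gm44045 went from 0.93 ± 0.46 to 6.28 ± 0.7 FPKM (2.59, adjusted p = 7.12e-05). The rule that named the rises asked for no overlap of libraries. A further 5 rose by 2.08 to 2.16: Gm37558, Gm17024, Gm37115, Gm28791 and Gm37553. Gm17024 reached the highest level of these, 6.48 ± 0.63 FPKM against 1.37 ± 0.46 in controls. Gm20634 also passed (2.17, adjusted p = 0.0293), but its U1+U2 AMO libraries had 5.2, 0.55 and 0.49 FPKM. The first library set its size, and without it the change was 1.20 (adjusted p = 0.0696). The call was also lost without control library 1 (adjusted p = 0.0906) or control library 2 (adjusted p = 0.0737). It was lost too with only the 2 groups fitted (adjusted p = 0.0564) or with 1 in place of the added 0.2 (adjusted p = 0.084).

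Set beside the single AMOs, the mean level of 9 of these 10 lncRNAs ran in the order control, U2 AMO, U1+U2 AMO, U1 AMO. Gm20634 was the exception. Gm37262 stood at 1.66 ± 0.47 FPKM with U2 AMO and 6.41 ± 2.1 with U1 AMO, around its 4.72 ± 0.36 with both. Gm43178 stood at 0.937 ± 0.031 with U2 AMO and 2.88 ± 0.57 with U1 AMO. Direct tests against U2 AMO use the same U1+U2 AMO libraries that named the rises. Of all lncRNAs 1.31% were higher with U1+U2 AMO than with U2 AMO, and of these 10 rises 5 were. These were Gm37262 (1.43, adjusted p = 0.00436), Gm44045 (1.24, adjusted p = 0.0067), Gm43178 (1.01, adjusted p = 0.00436), Gm37115 (0.88, adjusted p = 0.0168) and Gm37522 (0.71, adjusted p = 0.0364). After centring 9 of the 10 passed, all but Gm20634, and with the replicate block 7 did, adding Gm37558 (adjusted p = 0.0178) and Gm17024 (adjusted p = 0.0494). Gm37522 lost its call without any 1 of the 6 libraries compared (adjusted p from 0.0588 to 0.0941), and Gm37115 without U1+U2 AMO library 2 (adjusted p = 0.0561) or U2 AMO library 1 (adjusted p = 0.0712). None of the 10 differed from U1 AMO at that threshold, with adjusted p from 0.97 upwards.

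Falls included lncRNAs with known loci. Gm37795 (ENSMUSG00000102813.1) had 11.2, 5.37 and 8.44 FPKM in controls and 2.02, 1.29 and 1.96 with U1+U2 AMO, a change of -2.09 ± 0.3 (SE, adjusted p = 3.82e-04). Gm10416, on chromosome 5 from 109833501 to 109834142, had 9.76, 8.96 and 11.3 FPKM in controls and 1.85, 3.39 and 2.23 with both AMOs. It changed by -1.96 (adjusted p = 3.55e-04). In both, every treated library was well under the lowest control, and the rule that named the falls asked for separate libraries. 2500002B13Rik, on chromosome 8 from 57487963 to 57510262, had 3.61 ± 1.2 FPKM in controls and 0.91 ± 0.078 with U1+U2 AMO (-1.74, adjusted p = 3.55e-04). 2900076A07Rik, on chromosome 7 from 81523550 to 81531498, spans the microRNA gene Mir1839 and fell from 4.74 ± 0.69 to 1.41 ± 0.58 FPKM (-1.68, adjusted p = 0.00212). Nespas is the imprinted antisense RNA of the Gnas locus. It had 7.97, 4.39 and 6 FPKM in controls and 1.75, 2.22 and 1.89 with U1+U2 AMO, a change of -1.52 (adjusted p = 7.99e-04), and its groups did not overlap. 5530601H04Rik, on the X chromosome from 105040854 to 105070124, fell by 1.56 (adjusted p = 0.00177). The other named falls were Gm27010 (-1.58), Gm43860 (-1.45), Gm9873 (-1.62) and Gm13067 (-1.43). Gm9873 lost its call without control library 1 (adjusted p = 0.059) or U1+U2 AMO library 2 (adjusted p = 0.0521). Gm13067 lost it without U1+U2 AMO library 1 (adjusted p = 0.0665) or 3 (adjusted p = 0.179), and without control library 1 (adjusted p = 0.177) or 3 (adjusted p = 0.0703). It also lost it with no low-value filter (adjusted p = 0.051) and with only the 2 groups fitted (adjusted p = 0.0726).

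The 10 falls were compared with the single AMOs in the same way. Nespas had 1.95 ± 0.22 FPKM with U1 AMO against 1.95 ± 0.24 with both AMOs, and 4.43 ± 0.47 with U2 AMO. Gm37795 had 2.03 ± 0.56 with U1 AMO and 6.91 ± 1.4 with U2 AMO. Direct tests against U2 AMO use the same U1+U2 AMO libraries that named the falls. Of all lncRNAs 30.3% were lower with U1+U2 AMO than with U2 AMO. Of the 10 falls 8 were, by 1.10 (Nespas, adjusted p = 0.00457) to 2.15 (2900076A07Rik, adjusted p = 4.12e-04). Gm27010 did not pass there after centring (-0.63, adjusted p = 0.174), nor without U2 AMO library 1 (adjusted p = 0.0613) or 2 (adjusted p = 0.0512). Gm9873 did not pass against U2 AMO (adjusted p = 0.103) but did with the replicate block (adjusted p = 0.0255). Gm13067 did not pass (adjusted p = 0.0888), except without U1+U2 AMO library 2 (adjusted p = 0.0395). Against U1 AMO none of the 10 passed, and the furthest was Gm10416 at -0.80 (adjusted p = 0.946).

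**Figure D2:**
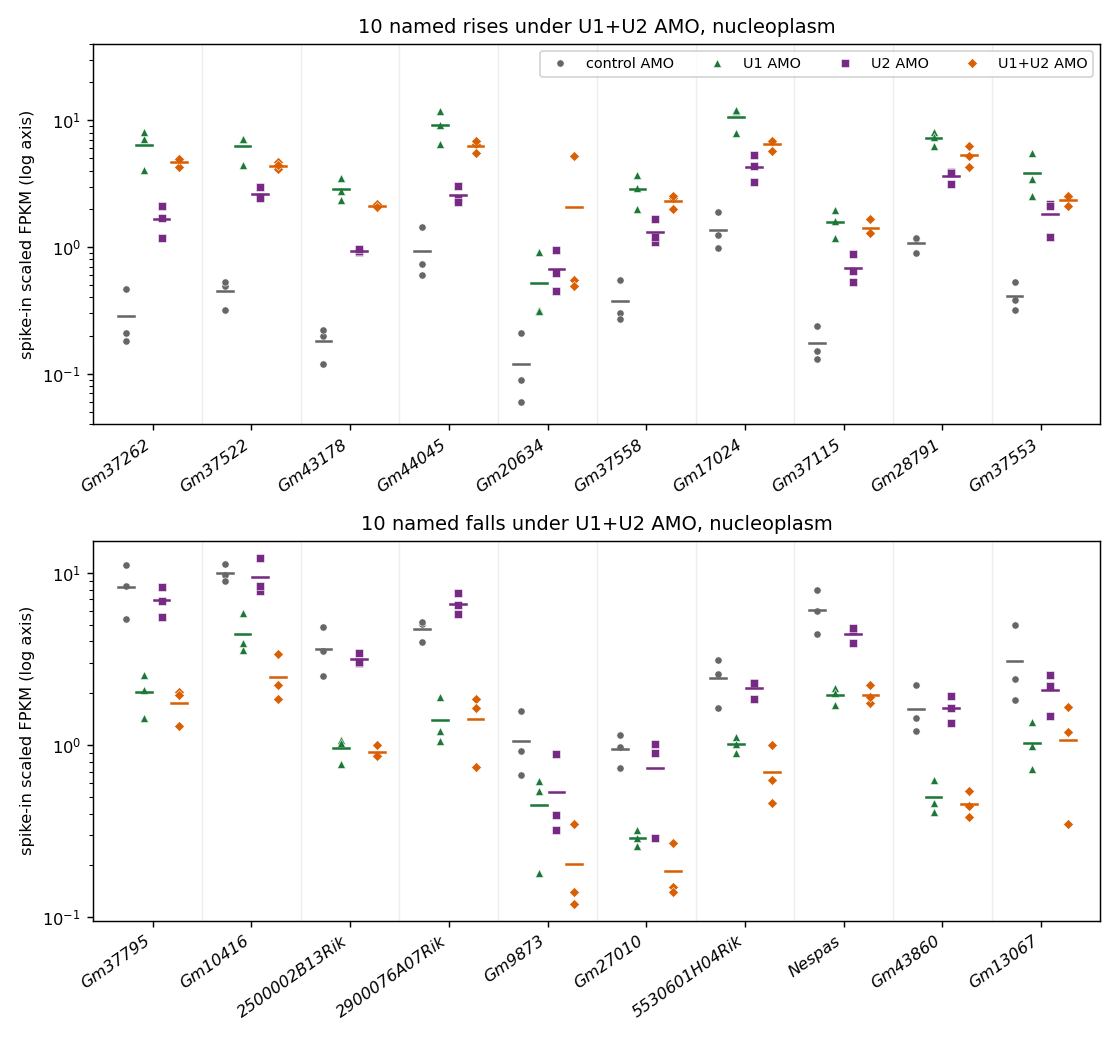
Spike-in scaled FPKM in nucleoplasm on a log axis for the 10 named rises (top) and 10 named falls (bottom), 1 point per library and a bar at the mean of 3, for control, U1, U2 and U1+U2 AMO. U1+U2 AMO libraries lie apart from controls for all 20, as the rule that named these lncRNAs asked. In 9 of the 10 rises the U1+U2 AMO mean is between those of U2 AMO and U1 AMO. For Nespas both U1 AMO and U1+U2 AMO average 1.95 FPKM and U2 AMO 4.43.

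Among host genes of snoRNAs, Snhg12 rose with U1+U2 AMO, while Gas5, Snhg1 and 3 others were lower than with U2 AMO alone. Hosts are spliced lncRNAs whose introns carry snoRNAs and whose exons are mostly degraded after splicing. Of 12 listed hosts 1 rose with U1+U2 AMO and 11 did not pass (8.33% called against 14.7% of all lncRNAs), with a median change of 0.33 against -0.13 over all. After centring 4 were higher and 1 lower, where 114 and 125 of all 1142 lncRNAs were. Snhg12, on chromosome 4 from 132308678 to 132311024, is the host that rose. It had 97.3, 52.3 and 82 FPKM in controls and 236, 237 and 285 with U1+U2 AMO, a change of 1.75 ± 0.36 (SE, adjusted p = 0.0057). Every U1+U2 AMO library was above every control. Snhg12 was also high with U1 AMO, at 376 ± 147 FPKM, and with U2 AMO, at 224 ± 37, and neither differed from U1+U2 AMO in the direct tests (adjusted p = 0.972 and 0.707).

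Gas5, a host of many snoRNAs named for its rise in growth-arrested cells, did not pass against control AMO. On chromosome 1 from 161034601 to 161038539, it had 105, 61.7 and 97.7 FPKM in controls and 66.4, 92.8 and 87.2 with U1+U2 AMO, and the libraries overlapped. The change was -0.08, with a 95% interval of -0.83 to 0.67 (adjusted p = 0.912). With U2 AMO alone its 3 libraries had 483, 380 and 507 FPKM, 5.56 times the mean with both AMOs. That difference of -2.48 ± 0.35 passed (adjusted p = 4.12e-04), and -1.93 after centring also passed (adjusted p = 5.42e-04). Snhg1, on chromosome 19 from 8723487 to 8726326, had 58.5, 36.1 and 58.4 FPKM in controls and 58.7, 62.5 and 77.3 with U1+U2 AMO. Its change of 0.40 did not pass (adjusted p = 0.511), although the lowest treated library was just above the highest control. With U2 AMO it was at 280 ± 43 FPKM, so that U1+U2 AMO was lower by 2.08 (adjusted p = 9.36e-04).

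In all, 5 of the 12 hosts were lower with U1+U2 AMO than with U2 AMO and none was higher (41.7% called against 31.6% of all lncRNAs). After centring 118 of all 1142 lncRNAs were lower and 91 higher. Of the hosts 4 were then lower and 1 higher, Epb41l4aos (0.83, adjusted p = 0.0092). The 5 hosts lower before centring included Gas5 and Snhg1. Besides Gas5 and Snhg1 these were Snhg6 (5.62 ± 0.53 against 23 ± 1.7 FPKM; -1.995, adjusted p = 7.98e-04), Snhg17 (14.8 ± 2.2 against 43.3 ± 12; -1.51, adjusted p = 0.00452) and Snhg5 (50.6 ± 7.5 against 102 ± 13; -1.02, adjusted p = 0.0168). After centring Snhg5 did not pass (-0.47, adjusted p = 0.157), nor did it without U2 AMO library 1 (adjusted p = 0.0564), U2 AMO library 3 (adjusted p = 0.0526) or U1+U2 AMO library 1 (adjusted p = 0.0729). In 8 of the 12 hosts every U1+U2 AMO library was below every U2 AMO library. Of all lncRNAs 50.9% had separate groups, counted in either direction, so these figures are not alike. With replicate number as a block, 8 hosts were lower than with U2 AMO, as were 38.6% of all lncRNAs. Against control AMO the block gave 9.02% of all lncRNAs higher and 9.63% lower. Of the 12 hosts it gave 3 higher (Snhg12, Snhg17 with adjusted p = 0.0165, and Epb41l4aos with adjusted p = 0.0444) and 1 lower (Snhg6, adjusted p = 0.0342). Without the block these last 3 had changes of 0.88 (adjusted p = 0.0895), 0.68 (adjusted p = 0.141) and -0.78 (adjusted p = 0.126). No host differed from U1 AMO, and all 12 differences were below 0, from -0.92 (Snhg1) to -0.23.

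**Figure D3:**
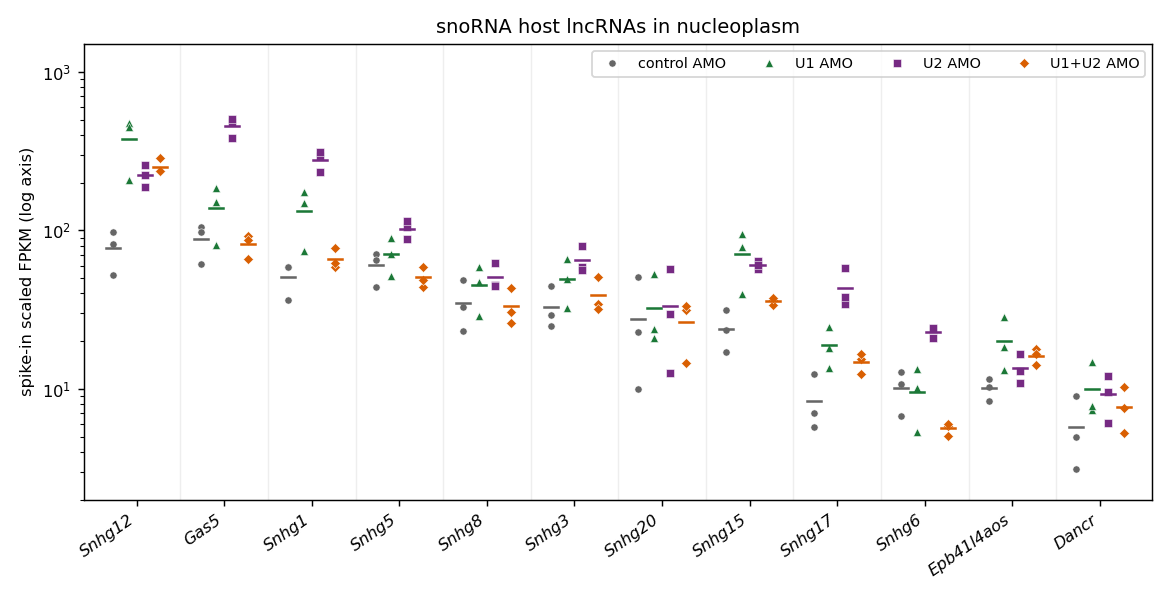
Spike-in scaled FPKM in nucleoplasm on a log axis for 12 snoRNA hosts, 1 point per library and a bar at the mean of 3. U1+U2 AMO lies with U1 and U2 AMO above the controls for Snhg12, and overlaps the controls for Gas5, where U2 AMO averages 457 FPKM, U1+U2 AMO 82.1 and control AMO 88.2.

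A wider set of hosts was found by position, as tested lncRNAs whose RefSeq span holds an annotated snoRNA. Strand was not compared for snoRNAs, so some may be antisense overlaps. One entry, Gm12238, is itself the annotated snoRNA and did not pass (adjusted p = 0.921). Of 24 such hosts 1 was higher (Snhg12) and 2 were lower than control (8.33% lower against 6.83% of all), and the median change was -0.06. With the block 3 were higher and 4 lower, against 9.02% and 9.63% of all lncRNAs. After centring 4 were higher and 4 lower, where 114 and 125 of all 1142 were. The 2 lower hosts of the main fit were 2700038G22Rik, which holds Snord93 (-1.20, adjusted p = 0.0292), and AI506816 (-0.998, adjusted p = 0.031). The call of 2700038G22Rik was lost without control library 1 (adjusted p = 0.119) or 3 (adjusted p = 0.11) or U1+U2 AMO library 1 (adjusted p = 0.127) or 2 (adjusted p = 0.0569). That of AI506816 was lost without any 1 library but control library 2 (adjusted p from 0.0681 to 0.126), and with only the 2 groups fitted (adjusted p = 0.0607). Against U2 AMO 11 of the 24 were lower and none higher (45.8% lower against 30.3% of all lncRNAs, median -0.77 against -0.58). After centring 118 of all 1142 lncRNAs were lower and 91 higher, and of the 24 hosts 8 were lower and 1 higher. Among these 1110038B12Rik, the host of Snord52 on chromosome 17, had 61.6 ± 8.1 FPKM with both AMOs and 216 ± 49 with U2 AMO (-1.79, adjusted p = 0.00194), with 71.1 ± 22 in controls. 2410006H16Rik, the host of Snord49a, Snord49b and Snord65, differed from U2 AMO by -1.56 (adjusted p = 0.00317). Against control AMO it differed by -0.82 (adjusted p = 0.0995), and passed there with the block (adjusted p = 0.045) and after centring (adjusted p = 0.0245). The RefSeq table placed 413 of the lncRNAs tested (36.2%), so these counts cover the placed ones. Of the 413 placed, 31 were lower and 6 higher than control.

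MicroRNA hosts were listed by name and found by position. Of 7 listed hosts 1 was lower and none higher (14.3% called against 14.7% of all lncRNAs), with a median change of -0.78 against -0.13. Dleu2, the host of miR-15a and miR-16 shown above, had 10.8, 6.92 and 9.12 FPKM in controls and 3.57, 4.36 and 4.49 with U1+U2 AMO. It fell by 1.06 (adjusted p = 0.0302), and the groups did not overlap. The call was lost without control library 1 (adjusted p = 0.116) or 3 (adjusted p = 0.0832) and without any 1 of the U1+U2 AMO libraries (adjusted p from 0.0588 to 0.114). Mir22hg had 5.12 ± 1.8 FPKM in controls and 2.55 ± 0.5 with U1+U2 AMO (-0.90, adjusted p = 0.105, or 0.0328 with the replicate block). Mir124a-1hg went from 2.52 ± 0.38 to 1.38 ± 0.18 FPKM (-0.78, adjusted p = 0.0581, or 0.0339 with the block). With the block, 3 of the 7 hosts were thus lower, against 9.63% of all lncRNAs. Mir17hg, which carries the miR-17 to miR-92 cluster, had 5.76 ± 1.5 and 5.11 ± 0.91 FPKM (-0.15, adjusted p = 0.815). By position, 3 of 15 microRNA hosts were lower and none higher (20% lower against 6.83% of all), namely Dleu2, 2900076A07Rik and Sox2ot. Hosts by position come only from the 413 lncRNAs that RefSeq placed, of which 31 were lower and 6 higher. The median over these 15 was -0.15, close to the -0.13 of all lncRNAs. Sox2ot overlaps the pluripotency gene Sox2 and went from 2.55, 0.77 and 1.42 FPKM to 0.54, 0.53 and 0.49 (-1.18, adjusted p = 0.0384). It lost the call without control library 1 (adjusted p = 0.164) or 3 (adjusted p = 0.0884) and without any 1 of the U1+U2 AMO libraries (adjusted p from 0.0854 to 0.0999). With only the 2 groups fitted Sox2ot did not pass either (adjusted p = 0.052).

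Nuclear lncRNAs best known for structural or imprinting roles were called at a share near that of all lncRNAs. Of 14 tested nuclear-retained lncRNAs 2 were lower, Nespas and Dleu2, and none higher (14.3% called against 14.7% of all lncRNAs). Their median was -0.44 against -0.13 over all. After centring 3 of the 14 were lower, where 125 of all 1142 were. Malat1, the abundant RNA of nuclear speckles, had 799, 428 and 735 FPKM in controls and 540, 621 and 726 with U1+U2 AMO. Its change was -0.02 with a 95% interval of -0.84 to 0.81 (adjusted p = 0.984). Neat1, the scaffold of paraspeckles, had 10 ± 2.3 and 7.62 ± 3.4 FPKM (-0.45, adjusted p = 0.384). Kcnq1ot1, an imprinted antisense RNA that silences its domain in cis, had 0.633 ± 0.12 and 0.477 ± 0.11 FPKM (-0.30, adjusted p = 0.442). Firre, an X-linked RNA with roles in nuclear organization, had 8.29 ± 2.4 and 4.73 ± 1.2 FPKM (-0.77, adjusted p = 0.131), and passed after centring (-0.74, adjusted p = 0.0206). Of 5 imprinted lncRNAs 1 was lower, again Nespas (20% called against 14.7% of all lncRNAs). Rian of the Dlk1-Dio3 domain had 44 ± 10 and 43.6 ± 1.9 FPKM (0.01, adjusted p = 0.981). Meg3 of the same domain had 23.5, 7.05 and 9.97 FPKM in controls and 13.8, 9.21 and 10.4 with U1+U2 AMO (-0.10, adjusted p = 0.908).

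None of 23 ESC lncRNAs passed (median -0.36, from -1.17 to 0.59), where 14.7% of all lncRNAs did, with a median of -0.13. The ESC lncRNAs are Lncenc1, Panct2 and Platr genes, which mark pluripotent cells. Lncenc1, needed for the naive state, had 49.8, 33.5 and 41.4 FPKM in controls and 27.4, 32.6 and 31.5 with U1+U2 AMO. The groups were apart by less than 1 FPKM, and the change of -0.43 did not pass (adjusted p = 0.317). Platr4 had 6.35, 2.42 and 4 FPKM in controls and 2.24, 1.47 and 1.48 with both AMOs. Its change of -1.13 had an adjusted p = 0.0949, and 0.00855 with the replicate block. Platr21 changed by -1.17 (adjusted p = 0.0544, or 0.0427 with the block), so that 2 of the 23 were lower with the block, against 9.63% of all lncRNAs. After centring 2 of the 23 were lower, where 125 of all 1142 were. On chromatin 18 of the 23 were lower with U1+U2 AMO (median -1.15), where 49.2% of all lncRNAs were lower. After centring 6 of the 23 were lower on chromatin (median -0.35), where 103 of all 1256 were. In a direct test of the fractions the change of 4 of the 23 was higher in nucleoplasm than on chromatin (17.4% against 10.8% of all lncRNAs), and of none after centring.

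Other lists had few calls, where 14.7% of all lncRNAs were called. Of 12 spliced cytoplasmic lncRNAs 1 was higher, Snhg12 (8.33% called), and with the block 2 were higher and 1 lower. Tug1, an abundant spliced lncRNA, had 36.3 ± 6.4 and 37.4 ± 1.9 FPKM (0.05, with a 95% interval of -0.50 to 0.61, adjusted p = 0.919). Of 3 tested X-inactivation lncRNAs none passed. Tsix had 1.99 ± 0.74 and 1.3 ± 0.25 FPKM (-0.51, adjusted p = 0.256), and whether reads of the overlapping Xist are counted apart is not given in the sources used here. Of 6 lncRNAs of differentiated cells 1 was lower, Sox2ot, and with the block Mir124a-1hg was too. Of 30 opposite-strand genes 1 was lower (3.33% called). With the block 1 was higher and 2 were lower, and after centring 2 and 3. The gene that fell, Zfp335os, on chromosome 2 from 164911433 to 164919954, had 0.743 ± 0.15 and 0.203 ± 0.032 FPKM (-1.22, adjusted p = 0.00333).

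The higher and lower lncRNAs differed in name and annotation. Gm genes made up 729 of the lncRNAs tested and gave 77 of the 90 higher and 48 of the 78 lower. Rik genes, named after cDNA clones, were 255 of those tested and gave 12 higher and 20 lower. Among the other 158 lncRNAs 1 was higher, Snhg12, and 10 were lower. C030017G13Rik (0.377 ± 0.076 to 1.57 ± 0.23 FPKM; 1.61, adjusted p = 2.62e-04) and F830112A20Rik (0.367 ± 0.076 to 1.4 ± 0.3 FPKM; 1.49, adjusted p = 0.00113) were the Rik rises with the smallest p. RefSeq placed 6 of the 90 higher lncRNAs (6.7%) and 31 of the 78 lower ones (39.7%), against 36.2% of all tested. Among Gm genes alone it placed 1 of 77 higher, 10 of 48 lower and 128 of 729 in all. With so few placed, lengths and exon numbers were not compared.

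They also lay at different control levels. Of the 381 lncRNAs with the lowest control levels in nucleoplasm 40 were higher and 2 lower, and of the 381 with the highest levels 20 were higher and 54 lower. These control libraries are part of the change, so the counts are a description. Ranked by the control level on chromatin minus that in nucleoplasm, the 381 furthest towards chromatin held 69 of the higher and 11 of the lower lncRNAs, and the 381 furthest towards nucleoplasm 6 and 32. The nucleoplasm controls enter both measures here too, and the same floor and filter apply.

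Against the same control libraries, U1 AMO alone had 120 lncRNAs higher (10.5%) and 42 lower (3.68%), and U2 AMO alone 221 higher (19.4%) and none lower. After centring these counts were 131 and 116 for U1 AMO and 95 and 37 for U2 AMO. Of the 10 named rises 9 were among the higher with U1 AMO and 9 with U2 AMO, and of the 10 named falls 8 were among the lower with U1 AMO and none with U2 AMO. After centring all 10 falls were lower with U1 AMO and 3 with U2 AMO (Nespas, 2500002B13Rik and Gm9873), and 8 of the rises were higher with U2 AMO. These comparisons share their controls. Over all lncRNAs, U1+U2 AMO was then compared with each single AMO directly. Against U1 AMO no lncRNA passed in limma (0% of 1142), 56 had an unadjusted p under 0.05, and the median difference was -0.15. The smallest adjusted p was 0.38, for Gm11948 (-1.26) and Gm43568 (-2.13). The 95% interval of a single difference reached 0.63 to each side at the median over lncRNAs. Groups did not overlap for 7.27% of lncRNAs. Against U2 AMO 15 were higher (1.31%) and 346 lower (30.3%), with a median of -0.58. Centring moved the median by 0.55, to -0.03, and then 91 were higher and 118 lower, of which 133 were among the 361. With the replicate block 27 were higher and 441 lower. Without U1+U2 AMO library 1 there were 237 calls, and without U2 AMO library 1 there were 225.

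The largest named differences from U2 AMO were falls. Gm15344 had 1.54, 1.53 and 2.7 FPKM with both AMOs and 18.7, 10.4 and 12.6 with U2 AMO (-2.73, adjusted p = 3.09e-04), while controls had 2.17 ± 0.63. Gm42793 had 0.38 ± 0.22 and 3.08 ± 0.99 FPKM (-2.53, adjusted p = 2.93e-04), and controls 0.517 ± 0.16. Gm44553 had 0.67 ± 0.14 and 3.74 ± 0.79 FPKM (-2.17, adjusted p = 7.23e-05), and controls 0.4 ± 0.082. Gm43029 differed by -2.17 (adjusted p = 6.42e-04). Like Gas5, these 4 did not pass against control AMO, with changes of -0.17, -0.36, 0.53 and -0.54 in this order, and Gm44553 alone of them passed there after centring (0.57, adjusted p = 0.0258). All 5 passed against U2 AMO after centring. Besides the rises given above, Gm38359 (0.95, adjusted p = 0.0283) and Gm37531 (0.90, adjusted p = 0.0134) were higher than with U2 AMO. Gm38359 lost its call without U1+U2 AMO library 2 (adjusted p = 0.102), U2 AMO library 1 (adjusted p = 0.072) or U2 AMO library 3 (adjusted p = 0.0971), and Gm37531 without U2 AMO library 2 (adjusted p = 0.0503).

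**Figure D4:**
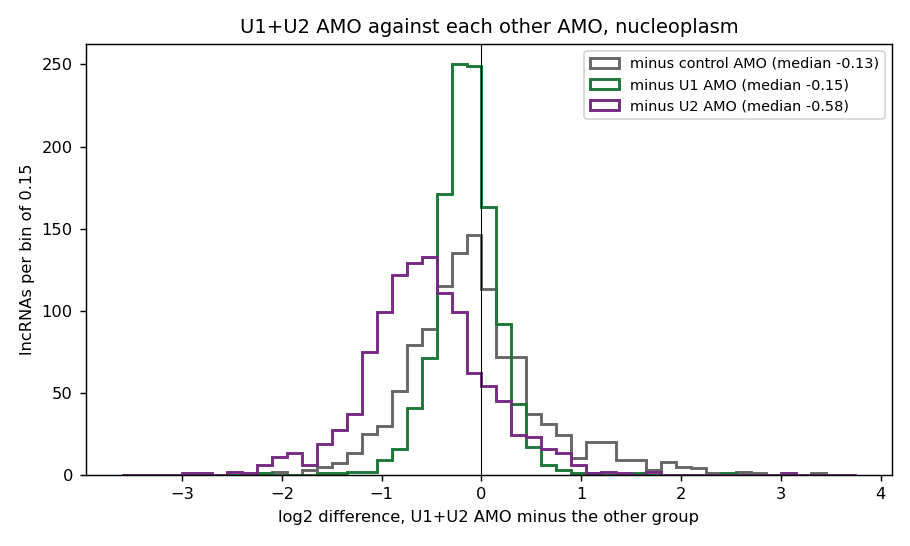
Histogram over 1142 lncRNAs of the log2 difference between U1+U2 AMO and control AMO (grey), U1 AMO (green) or U2 AMO (purple) in nucleoplasm. The differences from U1 AMO are the narrowest and centre at -0.15, and those from U2 AMO centre at -0.58.

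Nucleoplasm was then set beside the other fractions of U1+U2 AMO cells. On chromatin 48 lncRNAs were higher (3.82%) and 618 lower (49.2%) of 1256, 53% together, with a median of -0.74, and in cytoplasm 34 were higher (2.74%) and 68 lower (5.48%) of 1242, 8.21% together, with a median of -0.28. After centring, chromatin had 188 higher and 103 lower, and cytoplasm 58 higher and 43 lower. Of the 90 lncRNAs higher in nucleoplasm 38 were also higher on chromatin and 2 lower, so that 42.2% of the nucleoplasm list and 79.2% of the 48 on chromatin were shared. In cytoplasm 26 of the 90 were higher and 1 was lower, 28.9% of the nucleoplasm list and 76.5% of the 34 in cytoplasm. Of the 78 lower in nucleoplasm 73 were lower on chromatin and none higher, 93.6% of the nucleoplasm list and 11.8% of the 618. In cytoplasm 31 of the 78 were lower and none higher, 39.7% and 45.6% of the lists. The labels do not say whether fractions with the same number came from the same cells. Gm37262 rose in every fraction, by 2.38 on chromatin (adjusted p = 4.13e-05) and by 2.82 in cytoplasm (adjusted p = 0.00288). Snhg12 rose by 1.06 on chromatin (adjusted p = 0.00104) and by 1.66 in cytoplasm (adjusted p = 0.00288). Nespas fell by 1.67 on chromatin (adjusted p = 1.86e-05) and by 1.20 in cytoplasm (adjusted p = 0.00929).

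The difference between fractions was tested for each lncRNA. The change in nucleoplasm was above that on chromatin for 137 of 1270 lncRNAs (10.8%) and below it for 1 (0.0787%), with a median difference of 0.60. After centring the median was -0.14, and 3 were above and 2 below. The filter counted libraries of both fractions, so a lncRNA near the floor in nucleoplasm could enter through chromatin alone. In nucleoplasm alone 1142 were tested. The added 0.2 shrinks the nucleoplasm change of such a lncRNA, so a fall on chromatin can give a call by itself. With 1 or 0.05 in place of the added 0.2 there were 305 and 75 calls. The count was 45 without U1+U2 AMO library 2, 77 without library 3, 38 without control library 2 and 70 without control library 3. Gm42929 had 0.473 ± 0.24 FPKM in control nucleoplasm and 2.18 ± 0.49 with U1+U2 AMO (1.86, adjusted p = 7.99e-04), while its chromatin change was -0.45 (adjusted p = 0.206). The difference of 2.31 passed (adjusted p = 0.00393), also after centring (1.56, adjusted p = 0.0223). Gm28373 rose from 0.523 ± 0.16 to 1.44 ± 0.12 FPKM in nucleoplasm (1.20, adjusted p = 0.0157) and fell on chromatin (-0.75, adjusted p = 0.0062). The rise lost its call without U1+U2 AMO library 1 (adjusted p = 0.0563) or 2 (adjusted p = 0.0569) or control library 2 (adjusted p = 0.0578). Its difference of 1.95 passed (adjusted p = 0.00394), also after centring (1.21, adjusted p = 0.0363). Both lncRNAs also rose in cytoplasm, Gm42929 by 3.16 (adjusted p = 0.00147) and Gm28373 by 2.23 (adjusted p = 0.00345). Pvt1, the neighbour of Myc, had 1.53 ± 0.55 and 1.87 ± 0.76 FPKM in nucleoplasm (0.23, adjusted p = 0.693). It fell by 1.11 on chromatin (adjusted p = 2.98e-04), a difference of 1.34 (adjusted p = 0.0244). That difference did not pass after centring (0.60, adjusted p = 0.50) or with only the 2 AMO groups fitted (adjusted p = 0.0578). Nor did it pass without control library 2 (adjusted p = 0.0779) or U1+U2 AMO library 2 (adjusted p = 0.0777) or 3 (adjusted p = 0.0548). The 1 lncRNA below was Xist, which was under 0.2 FPKM in every nucleoplasm library and entered through chromatin, where it rose from 0.133 ± 0.04 to 0.57 ± 0.13 FPKM (1.20, adjusted p = 0.0021). Its call is therefore set by chromatin and says nothing of nucleoplasm. Between nucleoplasm and cytoplasm no change differed in limma (0 of 1253, 87 at an unadjusted p under 0.05), and 6 did with the replicate block.

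**Figure D5:**
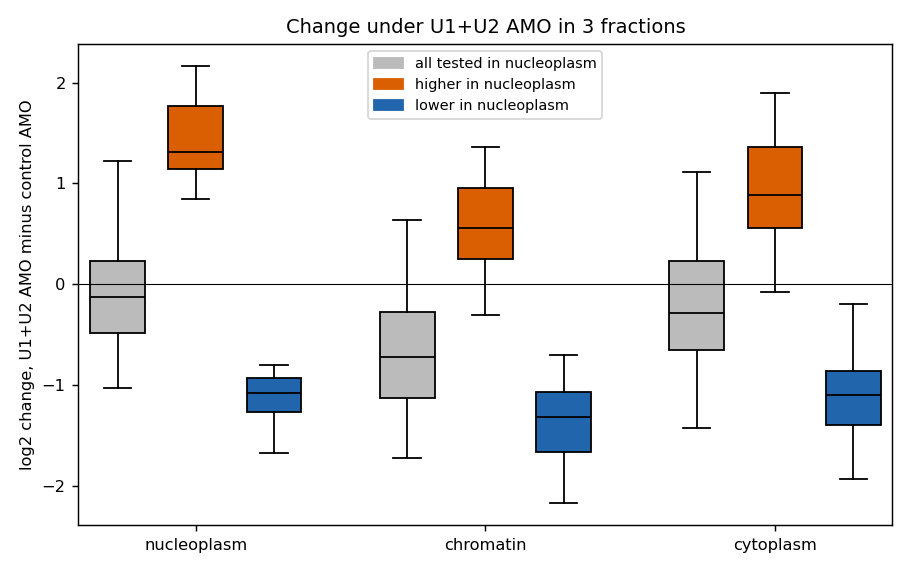
Log2 change under U1+U2 AMO in nucleoplasm, on chromatin and in cytoplasm for all lncRNAs tested in nucleoplasm (grey) and for the 90 higher (orange) and 78 lower (blue) there; boxes give quartiles and median, whiskers the 5th and 95th percentiles. The higher set has a median of 0.56 on chromatin and 0.88 in cytoplasm and the lower set -1.32 and -1.10; the nucleoplasm boxes show only how the sets were made.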

How the data were processed

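Members and lists were chosen with earlier results of these data known. FPKM values were made by the authors and deposited per lncRNA and library, scaled to spike-in RNA per the file headers. CASAVA, TopHat and Cufflinks with build mm10 are named in the submitters' processing notes. Tool versions, annotation, counting strand and depth: not given in the sources used here. Precision is therefore that of the 3 libraries per group. Whether replicates were separate cultures is not in the labels, so the p-values reflect library-to-library variation that may be technical only. Of 1282 rows, 3 sharing an identifier were left out. Of 48 value columns 36 were used, and 12 for whole cells were not used here. Symbols came from Ensembl identifiers (1261 of 1279 matched), positions and sequences from RefSeq (GRCm38).

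Values were taken as log2(FPKM + 0.2), near the 10th percentile above zero (0.15). LncRNAs under 0.2 FPKM in all but 1 or 2 of the libraries fitted were left out (3 had to reach it). The 12 nucleoplasm libraries of 4 AMO groups entered 1 fit in limma 3.58.1 (R 4.3.3, eBayes with trend, no block). Differences between fractions used 24 libraries. The code was tested on simulated data. Largest changes named are the 10 rises and 10 falls (5 for other tests) that passed, had separate libraries and whose average was not below the table's median level. Up to 4 passing members per list and a standing set were also named, and the text gives part of these. Deviations of same-numbered libraries correlated at 0.148, 0.184 and 0.43 between U1+U2 and control AMO, 0.165, 0.195 and 0.515 with U1 AMO and 0.1002, 0.225 and 0.395 with U2 AMO. Numbers were paired only in the replicate block, an alternative setting, and the main calls are unpaired. Alternatives were other pseudocounts and filters, centring, 2 groups alone, the block, robust eBayes and leaving out each library.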

Additional observations from a re-analysis of the deposited data

Results flagged for a closer look

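The change under U1+U2 AMO differed between nucleoplasm and chromatin for 138 lncRNAs in limma's test of the difference. That test also took lncRNAs that entered through chromatin alone. The 5 largest named differences, all higher in nucleoplasm, were 2.63 for Gm43514 (adjusted p = 0.0243), 2.31 for Gm42929 (adjusted p = 0.00393), 2.10 for Gm16104 (adjusted p = 0.0289), 1.95 for Gm28373 (adjusted p = 0.00394) and 1.73 for Gm12971 (adjusted p = 0.0436). After centring, Gm43514 (1.89, adjusted p = 0.321), Gm16104 (1.36, adjusted p = 0.318) and Gm12971 (0.99, adjusted p = 0.344) did not pass. In nucleoplasm alone these 3 changed by 1.37, 0.84 and 0.85 without passing (adjusted p = 0.0812, 0.212 and 0.153; 0.0401 for Gm16104 with the replicate block). Their calls were also lost without single libraries: Gm43514 without control library 2 (adjusted p = 0.0642) or 3 (adjusted p = 0.0544), Gm16104 without control library 2 (adjusted p = 0.095) or U1+U2 AMO library 2 (adjusted p = 0.057) or 3 (adjusted p = 0.0522), and Gm12971 without control library 2 (adjusted p = 0.1) or 3 (adjusted p = 0.0761) or U1+U2 AMO library 2 (adjusted p = 0.119) or 3 (adjusted p = 0.0671).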

How the results depend on the processing

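Of 32 named lncRNAs that passed against control AMO, 23 kept their direction and call in every setting run. The other 9 (Gm20634, Gm9873, Gm13067, Dleu2, Sox2ot, Gm28373, 2700038G22Rik, AI506816 and Gm38359, the last only without U1+U2 AMO library 2 at adjusted p = 0.0569) kept their direction. Leaving out 1 library gave 91 to 157 calls against control AMO, 0 to 1 against U1 AMO, 225 to 336 against U2 AMO, 38 to 174 between nucleoplasm and chromatin and 0 to 1 between nucleoplasm and cytoplasm. Against U2 AMO the count was 209 after centring (median -0.028) and 239 with 3 libraries at 1 FPKM (median -0.76), and the median was -0.27 with pseudocount 1 and -0.74 with 0.05. Between nucleoplasm and chromatin it was 305 with pseudocount 1, 75 with 0.05 and 5 after centring, where the median turned to -0.14. Between nucleoplasm and cytoplasm it was 3 with pseudocount 1, 4 with 0.05, 1 with 3 libraries at 1 FPKM and 6 with the replicate block. The difference of library medians, -0.04, ran from -0.122 to 0.088 when 1 library was left out. Among the lncRNAs run in every setting, the replicate block changed no call against control AMO other than those given, and same-numbered libraries of nucleoplasm and chromatin correlated above 0.1 in 14 of 18 pairs and of nucleoplasm and cytoplasm in 8 of 18.

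Signs turned only for lncRNAs that did not pass. After centring Snhg8 was at 0.011 and Malat1 at 0.022. When 1 library was left out the change ran from -0.317 to 0.066 for Gas5, -0.288 to 0.249 for Snhg8, -0.352 to 0.073 for 1110038B12Rik, -0.295 to 0.156 for Malat1, -0.471 to 0.383 for Meg3, -0.192 to 0.13 for Rian, -0.068 to 0.182 for Tug1, -0.357 to 0.008 for Mir17hg, -0.011 to 0.561 for Pvt1, -0.443 to 0.717 for Snhg20 and -0.414 to 0.033 for Gm15344, and against U2 AMO from -0.24 to 1.244 for Gm20634. The cause was not tested. Read depth is not given, so what depth limits could not be set.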
